A study of Bos taurus with 8 samples.

Results

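The genes of 10 integrin subunits that build the receptors for vitronectin, fibronectin and laminin were followed in bovine embryonic stem cells (bESCs) moved from a feeder layer to a defined coating. The subunits were chosen by name (*ITGAV*, *ITGB1*, *ITGB3*, *ITGB5*, *ITGB6*, *ITGB8*, *ITGA5*, *ITGA6*, *ITGA3* and *ITGA2*). They and the gene lists below were chosen with earlier results of these data known. Their shares set against those of all genes are therefore descriptive. Each subunit had a row among the 32637 genes with values, and 9 of the 10 passed the filter on low counts. The other, *ITGB6*, had no count in any library.

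RNA was sequenced from 4 bESC lines, A, C, D and E, all of genotype XX and each derived from a whole embryo produced in vitro. Every line gave 1 library on irradiated mouse embryonic fibroblasts (MEF) at passage 15 to 17 and 1 library after transition to feeder-free culture on vitronectin at passage 20 to 22, so that each condition had 4 libraries. All cultures were kept in 5% O2 in NBFR medium, which holds FGF2 and the WNT inhibitor IWR-1. The study's methods name Activin A as an addition for feeder-free culture, whereas the sample titles carry the same medium code in both conditions. Passage number and, by the methods, Activin A changed together with the coating, so their effects cannot be told apart. The methods describe the removal of feeder-derived reads from the counts of cells grown on MEF. Where the deposited counts carry this step, its effect cannot be told apart from that of the coating either. Whether they carry it was not tested.

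Integrins are transmembrane receptors made of an alpha and a beta subunit, and the pair decides which matrix protein is bound. *ITGAV* combines with several beta subunits into receptors for ligands that carry the RGD motif, above all vitronectin. *ITGA5* with *ITGB1* forms the classical fibronectin receptor, and *ITGA6* or *ITGA3* with *ITGB1* form laminin receptors. In primed pluripotent stem cells grown without feeders, receptors of *ITGAV* with *ITGB5* and of *ITGB1* are known to carry adhesion to vitronectin, and *ITGA6* with *ITGB1* adhesion to laminin. Once bound to ligand, integrins recruit talins, kindlins, focal adhesion kinase and the adaptors that tie them to actin.

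The MEF libraries held 44268717 to 54296425 counts and the feeder-free libraries 49671478 to 102351560, the deepest being that of line D. A total of 15744 genes were tested, and a gene was called when it passed both an adjusted p of 0.05 and a 1.5-fold change. On condition alone, 114 genes (0.724%) were called higher in feeder-free culture and 158 (1.00%) lower. These counts rest on all libraries being present: with line A in feeder-free culture left out they were 259 and 231, and with any other library left out at most 1 and 5. With the line as a block, which compares the 2 cultures of each line, 869 genes (5.52%) were called higher and 713 (4.53%) lower. With both libraries of a line left out of the block, 376 to 918 were called higher and 366 to 733 lower. That setting was chosen after the data were seen. The markers of pluripotent cells were present in all 8 libraries, with *POU5F1* at 2048 ± 245 CPM (the count of a gene relative to the scaled library total) on MEF and 1850 ± 84.6 CPM in feeder-free culture (SD, n = 4). CPM values below are scaled by TMM, log2 fold changes are feeder-free over MEF with their standard error (SE), and adjusted p-values are from edgeR over all genes tested.

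None of the 9 tested subunits was called between conditions in the fit on condition alone, and 3 (*ITGB3*, *ITGA5* and *ITGA2*) had an unadjusted p under 0.05, all 3 with higher values in feeder-free culture, against 10.2% of all genes. With the line as a block, *ITGB3*, *ITGB5* and *ITGA2* were called higher (3 of 9, against 5.52% of all genes) and none lower. The fitted log2 fold change was above 0 for all 9 subunits, with a median of 0.56 against 0.01 over all genes. The log2 ratio was above 0 in each of the 4 lines for *ITGB1*, *ITGB3*, *ITGB5* and *ITGA2*, 4 of 9 against 20.2% of all genes. *ITGB3* alone had no overlap between the conditions, with every feeder-free library above every MEF library, a pattern seen in 6.21% of all genes.

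**Figure D1:**
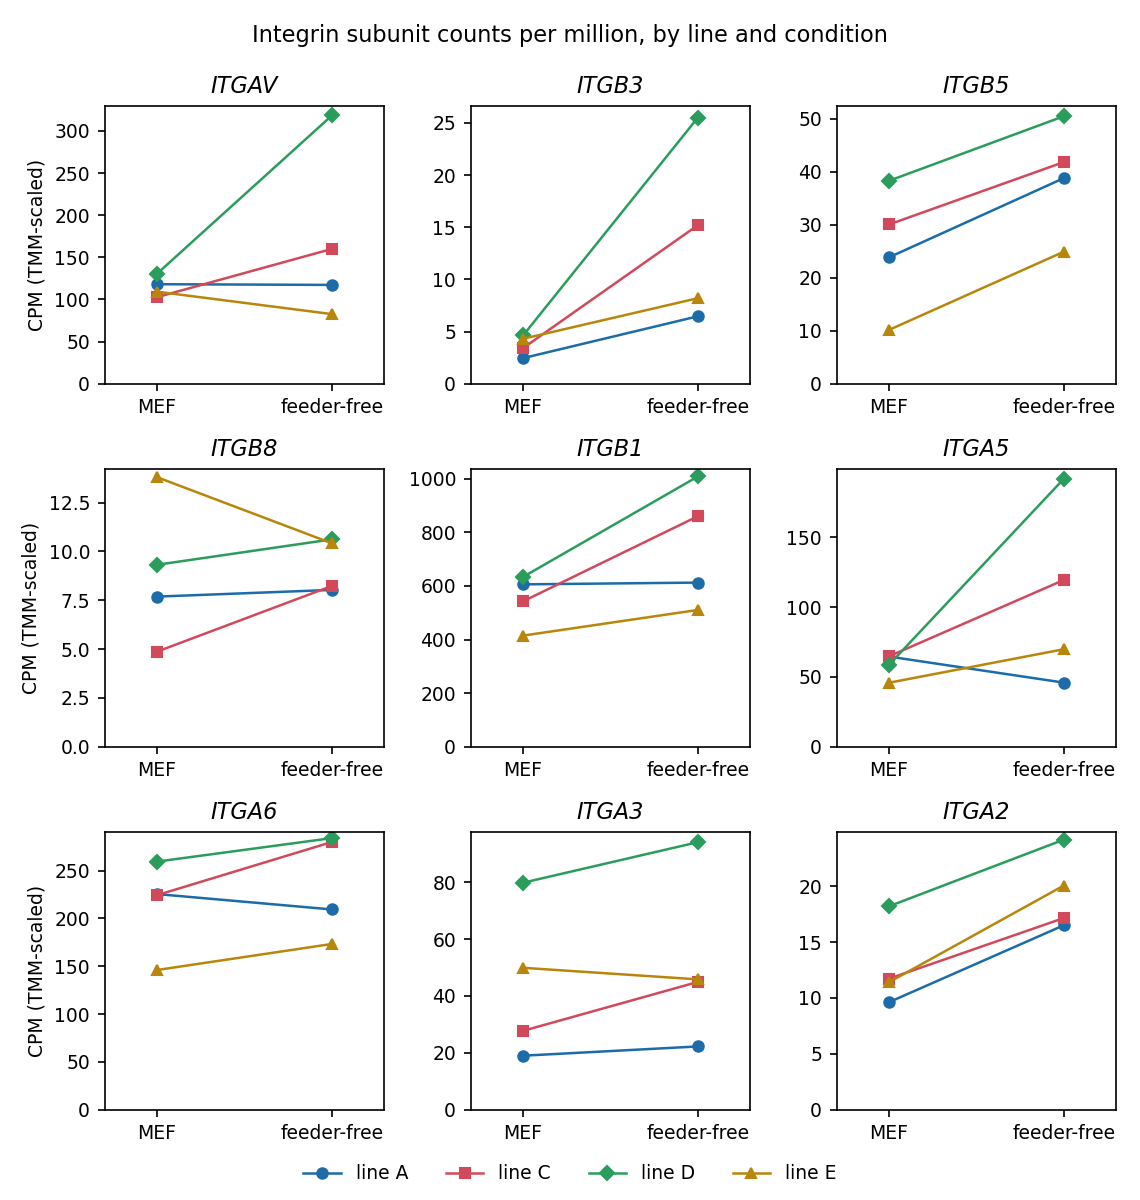
CPM (y axis, TMM-scaled, from 0 and with its own scale for each gene) of the 9 detected integrin subunits on MEF and in feeder-free culture, with 1 point per library and a line joining the 2 libraries of a bESC line. *ITGB3*, *ITGB5*, *ITGB1* and *ITGA2* go up in all 4 lines, while *ITGAV* goes up in 2, from 131 to 318 CPM in line D but from 109 to 82.6 CPM in line E.

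*ITGAV*, the alpha subunit of the vitronectin receptors, had 118, 103, 131 and 109 CPM on MEF in lines A, C, D and E. In feeder-free culture it had 117, 160.0, 318 and 82.6 CPM in the same order. The MEF libraries lay close together, whereas the feeder-free libraries reached from below to far above all of them. Line D had the highest value and line E the lowest. The mean was 115 ± 12.1 CPM on MEF and 170 ± 104 CPM in feeder-free culture (SD, n = 4), with a log2 fold change of 0.56 (SE 0.36, 95% interval -0.24 to 1.36, adjusted p = 0.408). The log2 ratio within a line was 1.29 in D, 0.64 in C, -0.01 in A and -0.40 in E, so the lines did not move in one direction. Without line D in feeder-free culture the log2 fold change was 0.06 (adjusted p = 0.932), and with the line as a block and line D left out it was 0.08 (adjusted p = 0.863).

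*ITGB3*, a partner of *ITGAV* in receptors for vitronectin, osteopontin and fibronectin, had 102 to 224 counts per library on MEF and 322 to 2611 in feeder-free culture. On MEF it had 2.45, 3.41, 4.63 and 4.30 CPM in lines A, C, D and E, and in feeder-free culture 6.46, 15.2, 25.5 and 8.20 CPM. Each feeder-free library was above each MEF library, and the feeder-free libraries of D and C stood above those of E and A. The mean was 3.70 ± 0.978 CPM on MEF and 13.8 ± 8.65 CPM in feeder-free culture, a log2 fold change of 1.90 (SE 0.43, 95% interval 0.94 to 2.87), with an adjusted p of 0.0538 on condition alone. *ITGB3* was called higher with the line as a block, at a log2 fold change of 1.75 (SE 0.26, adjusted p = 0.00358). The ratio within a line was 1.39 in A, 2.14 in C, 2.45 in D and 0.92 in E on the log2 scale. With line A in feeder-free culture left out, the fit on condition alone called it too, at 2.14 with an adjusted p of 0.0361, whereas with any other library left out the adjusted p was 0.0978 to 0.130, and the estimate was lowest, at 1.43, without line D in feeder-free culture. The blocked call stood with both libraries of any of the 4 lines left out (chosen after the data were seen, here and for the subunits below), and was smallest without line D, at 1.496 with an adjusted p of 0.0137.

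*ITGB5*, another partner of *ITGAV* and a receptor subunit largely dedicated to vitronectin, had 23.8, 30.03, 38.3 and 10.2 CPM on MEF in lines A, C, D and E. In feeder-free culture it had 38.8, 41.8, 50.5 and 24.9 CPM. The conditions overlapped, because line E in feeder-free culture stood below lines C and D on MEF, but each line had more in feeder-free culture than on MEF. The log2 fold change was 0.61 (SE 0.36, adjusted p = 0.377) on condition alone and 0.71 (SE 0.16, adjusted p = 0.0177) with the line as a block, where *ITGB5* was called. Without both libraries of line E the blocked estimate was 0.54, under the 1.5-fold threshold, with an adjusted p of 0.0299. Line E had the largest ratio, 1.29 on the log2 scale, and the lowest level on MEF.

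*ITGB8*, the partner of *ITGAV* in a receptor for latent TGF-beta, had 7.68, 4.87, 9.31 and 13.8 CPM on MEF and 8.03, 8.23, 10.6 and 10.4 CPM in feeder-free culture. The means, 8.91 ± 3.74 and 9.32 ± 1.38 CPM, differed by less than the spread between lines, with a log2 fold change of 0.07 (SE 0.29, 95% interval -0.60 to 0.73, adjusted p = 0.933). *ITGB6*, which serves the same ligand in epithelia, had 0 counts in all 8 libraries, which allows up to 0.0293 CPM in the deepest library and 0.0720 CPM in the shallowest (3 counts, counting error only). Mates were mostly counted singly, so 3 counts stand for fewer sequenced fragments and these limits are too low by an amount that was not measured. *ITGAV* had *ITGB1*, *ITGB3*, *ITGB5* and *ITGB8* RNA beside it in every library.

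*ITGB1*, the common beta subunit of the fibronectin, laminin and collagen receptors, had 606, 543, 634 and 415 CPM on MEF in lines A, C, D and E, and 613, 860.3, 1009 and 510.4 CPM in feeder-free culture. Lines C, D and E were higher in feeder-free culture, and line A had nearly the same value in both. The mean was 549 ± 97.5 CPM on MEF and 748 ± 228 CPM in feeder-free culture, with a log2 fold change of 0.45 (SE 0.23, 95% interval -0.07 to 0.97, adjusted p = 0.307). The blocked estimate was 0.41 (SE 0.13, adjusted p = 0.0583), past neither threshold.

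*ITGA5*, the alpha subunit of the fibronectin receptor, had 64.5, 64.7, 58.7 and 45.8 CPM on MEF, and 45.9, 119, 192 and 69.8 CPM in feeder-free culture. Lines C, D and E had more in feeder-free culture, D by 1.71 on the log2 scale, while line A had less, at -0.49. The log2 fold change was 0.87 (SE 0.38, 95% interval 0.02 to 1.72), with an adjusted p of 0.223 on condition alone and 0.122 with the line as a block. With both libraries of line A left out of the blocked fit, *ITGA5* was called at 1.07 (adjusted p = 0.0135), whereas without line C the blocked estimate was 0.62 (adjusted p = 0.301) and without line D 0.34 (adjusted p = 0.434). On condition alone it was 0.42 (adjusted p = 0.528) without line D in feeder-free culture.

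The alpha subunits of the laminin receptors, *ITGA6* and *ITGA3*, differed between the conditions by less than the spread between lines. *ITGA6* had 226, 224, 259 and 146 CPM on MEF and 209, 280.0, 284 and 173 CPM in feeder-free culture. The log2 fold change was 0.15 (SE 0.22, 95% interval -0.34 to 0.63, adjusted p = 0.755). *ITGA3* had 19.0, 27.8, 79.9 and 49.9 CPM on MEF and 22.2, 45.0, 94.1 and 45.9 CPM in feeder-free culture. Its log2 fold change was 0.23 (SE 0.50, 95% interval -0.89 to 1.36, adjusted p = 0.843). On condition alone, the intervals leave room for a change of up to 0.63 and 1.36 on the log2 scale. With the line as a block, *ITGA6* was at 0.15 (95% interval -0.096 to 0.391, adjusted p = 0.385). *ITGA3* was at 0.26 in that fit (95% interval -0.057 to 0.575, adjusted p = 0.238), and both upper limits were under a 1.5-fold change.

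*ITGA2*, which with *ITGB1* forms a collagen receptor that also binds laminin, had 9.63, 11.7, 18.2 and 11.4 CPM on MEF and 16.5, 17.2, 24.2 and 20.1 CPM in feeder-free culture. Each line had more in feeder-free culture, and the conditions overlapped through line D on MEF. The means were 12.7 ± 3.76 and 19.5 ± 3.49 CPM. The log2 fold change was 0.61 (SE 0.22, 95% interval 0.11 to 1.12), with an adjusted p of 0.154 on condition alone and 0.0169 with the line as a block, where *ITGA2* was called at 0.64 (SE 0.14). The blocked call was lost without line C (adjusted p = 0.0572) and without line D (adjusted p = 0.0545).

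**Figure D2:**
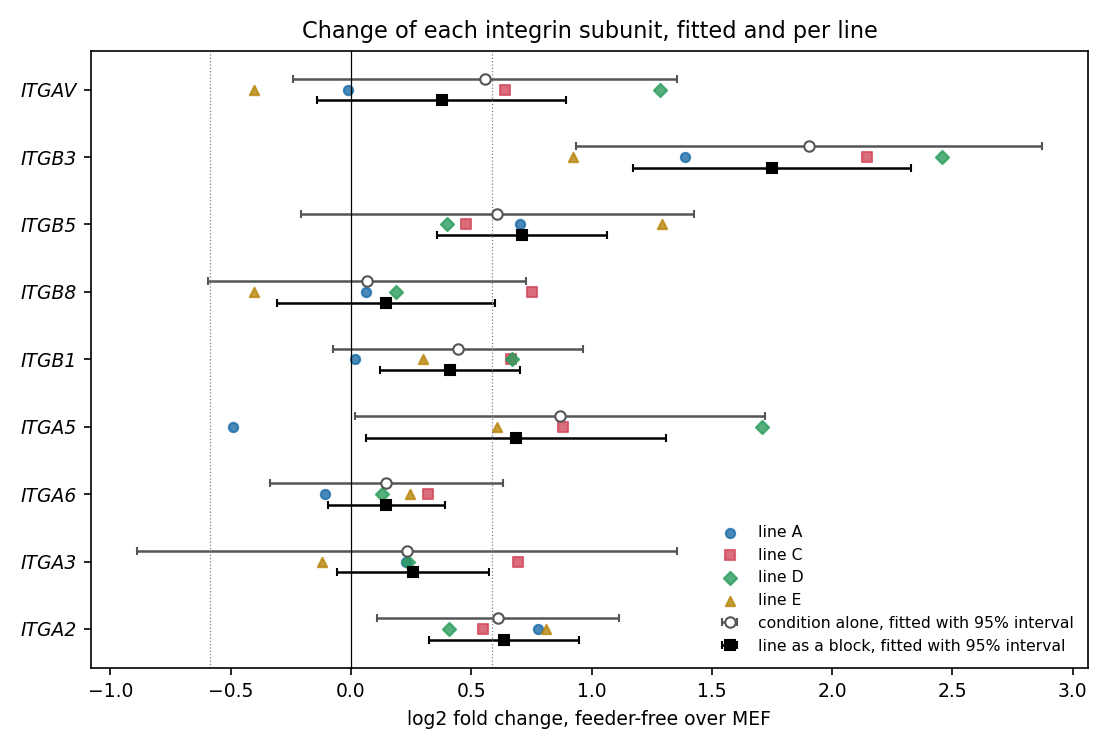
Log2 fold change of feeder-free over MEF (x axis) for the 9 detected subunits (y axis), as fitted on condition alone (open circles) and with the line as a block (black squares), each with its 95% interval, and as the ratio within each line (coloured points). Dotted lines mark a 1.5-fold change. The ratios of *ITGB3* run from 0.92 to 2.45 and those of *ITGA2* from 0.41 to 0.81, all above 0, while those of *ITGA5* run from -0.49 in line A to 1.71 in line D.

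The gene spans below follow the RefSeq annotation of ARS-UCD2.0, the build to which the reads were aligned, and the counts cover annotated exons of a gene without telling its isoforms apart. *ITGAV* lies at chr2:9640553-9749414, *ITGA6* at chr2:24091592-24179353 and *ITGB6* at chr2:36097355-36248576. *ITGB3* lies at chr19:46322645-46392503, on the chromosome of *ITGA3* (chr19:36565805-36599330). *ITGB1* lies at chr13:19970709-20014499, *ITGB5* at chr1:69196890-69312489, *ITGB8* at chr4:29021938-29120852 and *ITGA5* at chr5:25662353-25683394. *ITGA2* lies at chr20:25972489-26081221 and its span overlaps that of *MOCS2*, a molybdenum cofactor synthesis gene. *MOCS2* had 23.4 ± 3.36 CPM on MEF and 35.3 ± 7.02 CPM in feeder-free culture, and was higher there in all 4 lines. Its log2 fold change was 0.59 (adjusted p = 0.0937) on condition alone, beside 0.61 for *ITGA2*. With the line as a block it was 0.58 (adjusted p = 0.0253), under the 1.5-fold threshold, beside 0.64 for *ITGA2*. *ITGAV*, *ITGA6*, *ITGB6*, *ITGB8* and *ITGA5* also overlap annotated genes, each of them a microRNA or a locus without a gene name (*MIR2351* and *LOC132343530* for *ITGAV*, *MIR2352* for *ITGA6*). Whether the counting used strand, and how it treated reads of a stretch shared by genes, is not given in the sources used here. Such reads could have been ascribed to either gene or left uncounted. The part of *MOCS2* in the *ITGA2* difference, and of the other overlapping genes in the values of their subunits, was not tested.

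Differences between the 4 lines were then tested with the condition taken out. Each line had 1 library per condition, so whether a line responded differently from another could not be tested. Of the 9 subunits 3 were called (*ITGA3*, *ITGB5* and *ITGA6*), against 11.8% of all genes (1865, and from 900 to 2944 with a library left out). *ITGA3* had the widest separation: both libraries of line D stood above the other 6 and both libraries of line A below them, with 2.07 on the log2 scale between the means of D and A (adjusted p = 0.0014). *ITGB5* was lowest in line E and highest in line D, 1.46 apart on the log2 scale (adjusted p = 0.0152). *ITGA6* was lowest in line E, whose 2 libraries stood below the other 6, and highest in line D, 0.77 apart (adjusted p = 0.0355). The *ITGA6* call was lost when either library of line C, D or E was left out, with adjusted p-values from 0.0694 to 0.121, and stood without either library of line A. Without line A on MEF *ITGB1* and *ITGA5* were called as well, 5 subunits in all, and without line D on MEF *ITGAV*, *ITGB3* and *ITGA5* beside *ITGA3* and *ITGB5*.

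The remaining subunits were not called between lines. Their adjusted p was 0.0673 for *ITGB1*, 0.0768 for *ITGB3*, 0.0983 for *ITGA2*, 0.126 for *ITGAV*, 0.163 for *ITGB8* and 0.224 for *ITGA5*. Line D had the highest mean over both conditions of the 4 lines for every detected subunit except *ITGB8*, which was highest in line E. For *ITGA5* this came from the feeder-free library, at 192 CPM. On MEF line D had 58.7 CPM of *ITGA5*, below line A (64.5) and line C (64.7). Over the 9 subunits, the median log2 ratio of feeder-free over MEF was 0.06 in line A, 0.66 in line C, 0.41 in line D and 0.30 in line E.

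**Figure D3:**
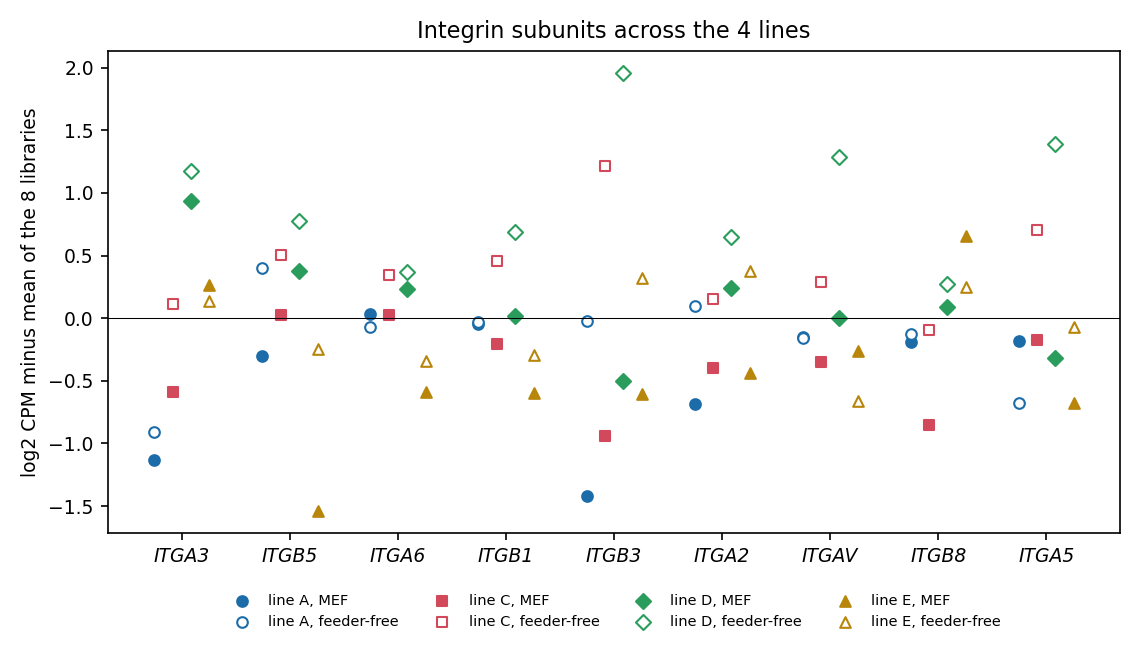
Log2 CPM of each detected subunit in each library, less the mean over the 8 libraries (y axis), ordered along the x axis by the evidence for a difference between lines, with filled symbols for MEF and open symbols for feeder-free culture. The *ITGA3* libraries of line D stand together above the rest and those of line A below, whereas for *ITGB3* every open symbol stands above every filled one, with line D highest and line A lowest in both conditions.

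Because an integrin works as a pair, the ratio of 2 subunits within a library was compared between the conditions for 10 pairs, as values with no test. *ITGB3* against *ITGAV* moved by 1.35 ± 0.14 on the log2 scale (mean ± SD over 4 lines), with 1.40 in line A, 1.504 in C, 1.17 in D and 1.33 in E. The 4 lines were close to each other here, although the ratio of *ITGAV* itself between the conditions went from -0.40 to 1.29. *ITGB5* against *ITGAV* moved by 0.34 ± 1.12, upwards in lines A and E and downwards in C and D. *ITGA6* against *ITGB1*, the laminin receptor pair, moved by -0.27 ± 0.22 and was lower in feeder-free culture in all 4 lines, by as little as -0.05 in line E.

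*ITGA5* against *ITGB1*, the fibronectin receptor pair, moved by 0.26 ± 0.63, and *ITGAV* against *ITGB1* by -0.03 ± 0.54, less than the spread between lines. *ITGB3* against *ITGB5*, the alternative partners of *ITGAV*, moved by 1.01 ± 1.08, from 2.06 in line D to -0.37 in line E. *ITGB8* against *ITGAV* moved by -0.23 ± 0.58 and *ITGA3* against *ITGA6* by 0.11 ± 0.34. Against *ITGA6*, *ITGAV* moved by 0.23 ± 0.74 and *ITGA5* by 0.53 ± 0.81.

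**Figure D4:**
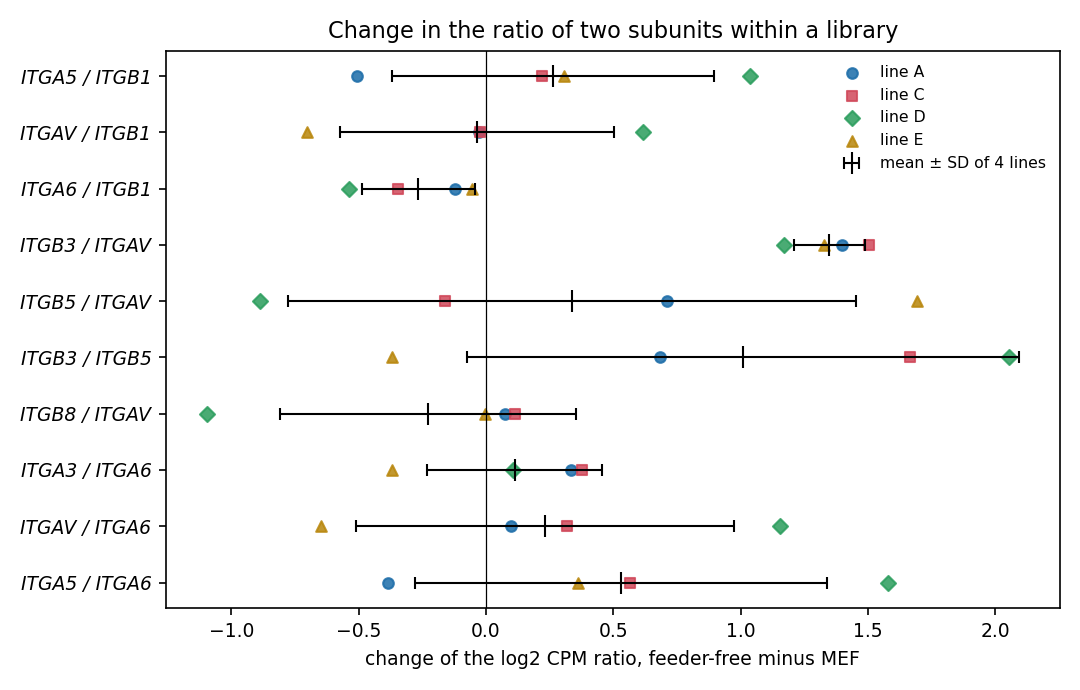
Change of the log2 CPM ratio of 2 subunits from MEF to feeder-free culture (x axis) for 10 pairs (y axis), with 1 point per line and the mean ± SD of the 4 lines in black. *ITGB3* over *ITGAV* sits at 1.35 ± 0.14 with all 4 lines above 1, and *ITGA6* over *ITGB1* at -0.27 ± 0.22, while the other pairs spread across 0.

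Across the 8 libraries, log2 CPM of *ITGB1* ran most closely with that of *ITGA6* (Pearson r = 0.900), *ITGA5* (0.870), *ITGAV* (0.864) and *ITGB5* (0.846). *ITGB8* had its lowest r with *ITGB5* (-0.395) and *ITGA6* (-0.390) and its highest with *ITGA3* (0.560). These values describe 8 libraries that share 4 lines and 2 conditions, which are not independent. Of all tested genes, those most like *ITGB3* were *SLC38A1* (r = 0.993), *FLT1* (0.982), *CNN3* (0.977), *ANO6* (0.976) and *LOC101904769* (0.976). Those most like *ITGA2* were *NAA35* (0.977), *EGR2* (0.972), *SPRY4* (0.971), *OCLN* (0.970) and *FGF2* (0.968).

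Of the other integrin subunits, 15 of the 16 listed had a row and 11 were tested, with a median log2 fold change of 0.40. On condition alone 1 was called higher and 0 lower, against 0.724% and 1.00% of all genes. The blocked fit called 2 higher and 0 lower, against 5.52% and 4.53%. *ITGA8*, which with *ITGB1* binds RGD ligands, was the one called on condition alone. It rose from 1.96 ± 0.744 to 6.51 ± 1.61 CPM, by 1.73 (SE 0.33, adjusted p = 0.0399). Every feeder-free library was above every MEF library, as in 6.21% of all genes. *ITGB7*, a beta subunit best known from lymphocytes, was called as well with the line as a block, at 1.16 (adjusted p = 0.0138), with 1.72 ± 0.346 CPM on MEF and 3.84 ± 0.629 CPM in feeder-free culture. *ITGB4*, the partner of *ITGA6* in hemidesmosomes, had 30.7 ± 6.17 and 35.3 ± 4.87 CPM (log2 fold change 0.20, adjusted p = 0.545).

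Among ligands of RGD-binding integrins and their carriers, 13 of 16 genes were tested and 0 were called on condition alone, with 6 at an unadjusted p under 0.05 (against 21.6% of all genes), 5 of them higher in feeder-free culture (against 10.2%). The blocked fit called 5 higher (against 5.52% of all genes) and none lower, and the median log2 fold change on condition alone was 0.90. *SPP1* (osteopontin, a ligand of *ITGAV* with *ITGB3*) had 0.432, 1.40, 5.91 and 0.861 CPM on MEF in lines A, C, D and E, and 2.19, 22.2, 123 and 8.33 CPM in feeder-free culture. Every line was higher in feeder-free culture, and lines D and C were the highest. The blocked log2 fold changes were 3.70 for *SPP1*, 3.02 for *THBS1* (thrombospondin), 2.90 for *CCN1* and 0.91 for *CCN2* (matricellular ligands) and 0.90 for *LTBP1* (which holds latent TGF-beta in the matrix), with adjusted p-values of 0.000298, 0.000298, 0.000298, 0.0135 and 0.0117.

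*VTN*, the gene of vitronectin itself, was nearly silent, with at most 14 counts in any library (0.317 CPM, line E on MEF), and was not tested. *FN1* (fibronectin) had 177 ± 15.0 CPM on MEF and 208 ± 70.5 CPM in feeder-free culture (log2 fold change 0.23, adjusted p = 0.603), higher in lines C and D and lower in A and E. The study lists *FN1* as upregulated in feeder-free culture at both oxygen levels, whereas it was called in neither fit here. Of the 11 laminin chains 9 were tested and 0 were called in either fit, with 1 at an unadjusted p under 0.05 on condition alone and a median log2 fold change of 0.08. *LAMA5*, *LAMB1* and *LAMC1*, which together make laminin-511, had 325 ± 96.7, 143 ± 37.2 and 203 ± 39.1 CPM on MEF and 355 ± 86.1, 159 ± 52.6 and 182 ± 60.3 CPM in feeder-free culture.

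Inside the cell, all 33 listed adaptors and kinases of integrin adhesions were tested. On condition alone 1 was called higher and 2 lower, against 0.724% and 1.00% of all genes. The blocked fit called 9 higher and 2 lower, against 5.52% and 4.53%, with a median log2 fold change of 0.39 on condition alone. *TGFB1I1* (HIC-5, a paxillin relative) rose from 6.95 ± 1.44 to 31.1 ± 18.3 CPM, by 2.16 (adjusted p = 0.0376). *TLN2*, a talin that links beta subunits to actin, fell from 70.0 ± 7.75 to 41.3 ± 4.59 CPM (log2 fold change -0.76, adjusted p = 0.0331). *SRC*, the kinase that acts with focal adhesion kinase, fell from 83.8 ± 5.42 to 48.3 ± 7.55 CPM (log2 fold change -0.79, adjusted p = 0.0331). For all 3 genes, named because they were called, the conditions did not overlap. Of all genes, 6.21% had every feeder-free library above every MEF library. The share with the opposite order, as in *TLN2* and *SRC*, is not given here.

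*TLN1*, the other talin, had 267 ± 75.9 and 318 ± 129 CPM (log2 fold change 0.26, adjusted p = 0.700). The kindlins *FERMT1* and *FERMT2*, which activate integrins with talin, had log2 fold changes of 0.33 and 0.39 (adjusted p = 0.361 and 0.194). *ILK*, the scaffold between beta subunits and actin, had 64.4 ± 5.17 CPM on MEF and 106 ± 24.8 CPM in feeder-free culture, called with the line as a block at 0.69 (adjusted p = 0.0214) but not on condition alone (0.0609). Its span overlaps that of *TAF10*. *PTK2* (focal adhesion kinase) had a blocked log2 fold change of 0.47 (adjusted p = 0.0310), under the 1.5-fold threshold. Other adaptors called higher with the line as a block included *VCL* (vinculin), at 1.86, with 256 ± 166 and 967 ± 629 CPM, *LIMS2* (a partner of *ILK*) at 2.04 and *TNS2* (a tensin) at 1.38.

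**Figure D5:**
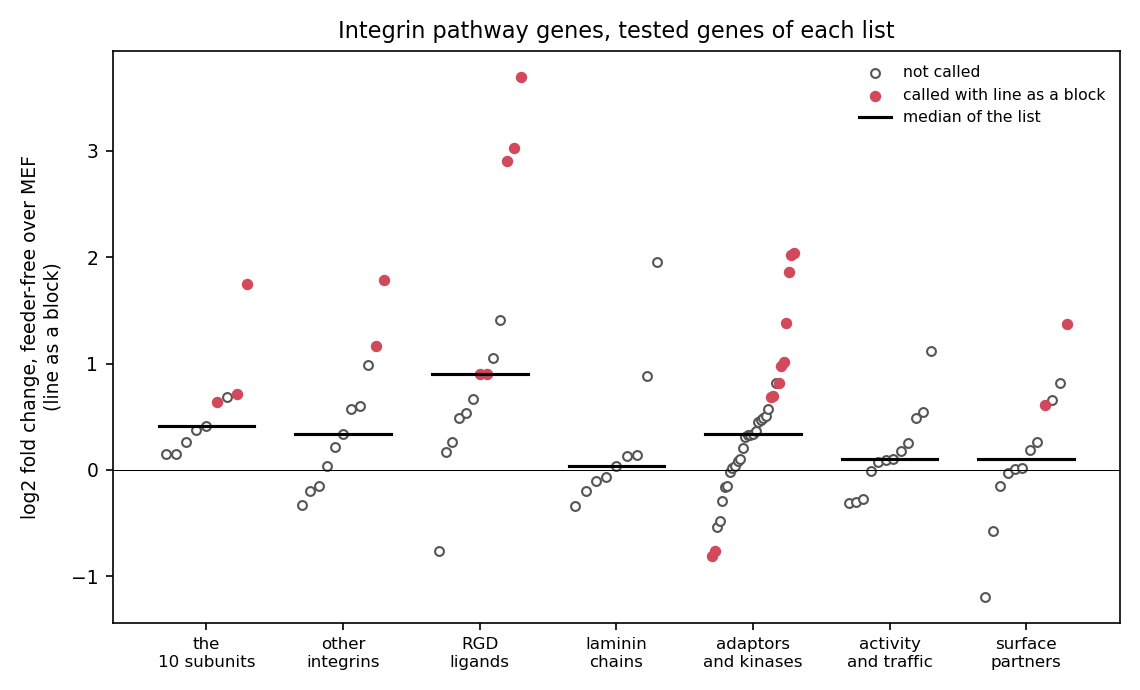
Log2 fold change with the line as a block (y axis) of every tested gene in 7 lists of the integrin system (x axis), 1 point per gene, with genes called in that fit in red and the median of each list as a bar. The list marked RGD ligands holds ligands of RGD-binding integrins and their carriers, and its highest points are *SPP1*, *THBS1* and *CCN1* at 2.90 to 3.70. The 2 red points below 0 among the adaptors and kinases are *TLN2* and *SRC*, and no laminin chain is red.

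None of the 12 tested regulators of integrin activity and traffic was called in either fit (median log2 fold change 0.11, 5 at an unadjusted p under 0.05, 3 of them higher). Of 14 surface partners 12 were tested, with a median of 0.10. On condition alone 1 was called higher and 0 lower, against 0.724% and 1.00% of all genes. The blocked fit called 2 higher and 0 lower, against 5.52% and 4.53%. *CD47*, a partner of *ITGAV* with *ITGB3* and a thrombospondin receptor, rose from 52.2 ± 16.2 to 134 ± 37.5 CPM, by 1.36 (adjusted p = 0.0393), and *CD9*, a tetraspanin, was called with the line as a block at 0.61 (adjusted p = 0.0085). *CD151*, the tetraspanin that binds *ITGA3* and *ITGA6*, had 23.3 ± 7.56 and 35.3 ± 2.93 CPM (log2 fold change 0.60, adjusted p = 0.143). Of the 3 laminin receptors outside the integrin family, *BCAM* was called with the line as a block, at 1.55 (adjusted p = 0.00226), and *DAG1* and *RPSA* were not. That is 1 of 3 called higher, against 5.52% of all genes. With any 1 library left out, other than that of line A in feeder-free culture, *ITGA8*, *TGFB1I1*, *TLN2*, *SRC*, *CD47* and the markers *APOA1* and *KDR* were no longer called on condition alone, with adjusted p-values up to 0.116, while their signs stayed. With the line as a block all of these genes were called. They stayed called there with both libraries of any line left out, a setting chosen after the data were seen.

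Some markers of other cell types moved with some of these values, and in these bulk samples fewer cells of a type and less RNA per cell cannot be told apart. The summed level of 25 fibroblast genes was 1384 to 1810 CPM on MEF and 1011 to 2970 CPM in feeder-free culture, where lines D and C were highest, as they were for *ITGAV*, *ITGB1*, *ITGB3*, *ITGB5*, *ITGA5* and *ITGA6*. Of the 22 tested, 0 were called on condition alone (5 at an unadjusted p under 0.05, against 21.6% of all genes, the share that the like counts of the other lists are to be read against). The median log2 fold change of the 22 was -0.05, with 11 above 0, so the sums do not stand for the whole list. In the blocked fit *ACTA2* (2.95), *POSTN* (2.77) and *COL3A1* (2.53) were called higher in feeder-free culture, and *COL1A2* (-4.35) and *PRRX1* (-4.15) lower. These were 3 and 2 of the 22, against 5.52% and 4.53% of all genes. Blocked calls of the other marker lists are to be read against these shares, and calls on condition alone against 0.724% higher and 1.00% lower. *COL1A2* was at 0.414 CPM or less in every feeder-free library. The summed trophoblast markers were 684 to 1220.5 CPM on MEF and 745 to 2987 CPM in feeder-free culture, again highest in D and C, nearly all of it from *KRT8* and *KRT18*, while *CDX2*, *PAG2* and *IFNT2* were at 0 in all libraries.

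Of the 6 trophoblast markers tested 0 were called on condition alone (3 at an unadjusted p under 0.05), and with the line as a block *KRT8* (0.74) and *KRT18* (0.98) were called higher and *GATA2* (-1.45) lower. The 8 hypoblast and endoderm markers summed to 55.7 to 113 CPM on MEF and 130 to 244 CPM in feeder-free culture, most of it from *APOA1*, which rose by 1.53 (adjusted p = 0.0349), whereas the median log2 fold change of the 5 tested was -0.54, with 2 of the 5 above 0 (*APOA1* and *CTSL*). The 7 mesoderm markers summed to 4.80 to 11.98 and 14.4 to 24.9 CPM, with *KDR* higher by 1.84 (adjusted p = 0.0403) and *EOMES* called with the line as a block at 1.61. The 10 pluripotency markers summed to 5190 to 5886 CPM on MEF and 4516 to 5117 CPM in feeder-free culture. None of them was called on condition alone. At an unadjusted p under 0.05 there were 7, of which 6 were lower, against 1793 lower among the 15744 genes tested. The median log2 fold change of the 10 was -0.32, with 3 above 0, and the sums of the 2 conditions did not overlap. With the line as a block *CRIPTO* was called higher (2.42) and *OTX2* lower (-0.66). The part of these cell type markers in the differences of the integrin subunits was not tested.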

How the data were processed

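The authors trimmed reads with Trimmomatic, aligned them to ARS-UCD2.0 with STAR, removed optical duplicates with Picard and low mapping quality alignments with samtools, and deposited raw counts per gene from featureCounts (Subread 1.6.2 in the submitters' processing notes). The counting of strand and of reads or pairs is not given in the sources used here. Of counts from 1 to 40, 68.0 to 74.2% were even, so mates were mostly counted singly and counts understate counting error. The records name Trizol for RNA isolation and the methods an RNeasy kit.

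Of 32640 genes, 3 had no values and 30268 of the rest matched RefSeq. Counts were tested with edgeR 4.0.16 (filterByExpr, TMM, quasi-likelihood test) in R 4.3.3 on condition alone. P-values were adjusted by the Benjamini-Hochberg method over 15744 genes. The call needed an adjusted p under 0.05 and a 1.5-fold change. The study's methods name edgeR, TMM and these thresholds, and no further batch correction, whereas the quasi-likelihood test, the filter and the unpaired design were chosen here. The study reported more genes higher than lower in feeder-free culture in low oxygen. The fit with the line as a block called more higher as well (869 against 713), whereas the fit on condition alone called more lower (114 higher against 158 lower). The cause of this difference was not tested. A prior count of 2 was used for log2 CPM. SE came from the F statistic. Line differences were tested with an F test over the line terms. Libraries are paired by line, since each line was cultured both ways: deviations from the condition mean correlated at 0.421 to 0.664 within a line and at -0.523 to 0.249 between lines. The blocked fit was the alternative. No libraries of a condition were copies (smallest chi-square per degree of freedom 34.3 over 12 pairs).

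The subunits and gene lists were chosen with earlier results of these data known. Named genes were the 10 subunits, 9 fixed pathway genes (*VTN*, *FN1*, *ITGB4*, *TLN1*, *FERMT1*, *FERMT2*, *ILK*, *PTK2* and *CD151*), list genes called on condition alone, up to 5 per list called with the block, and the 5 genes most like each of 2 subunits. Other genes given as context were named after their values were seen. Alternatives were other scalings, filters, tests (DESeq2 1.42.0, limma-voom with limma 3.58.1) and thresholds, left-out libraries and thinning of the deepest library. Fits were tested on simulated data. All records give batch 1. No exon lengths or sequences were used here, so levels were not compared between genes.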

Additional observations from a re-analysis of the deposited data

Results flagged for a closer look

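In groups of 4 libraries, a value was singled out where its gap to the nearest other library took up more of the range of the group than Dixon's 95% limit allows. Of 92 groups (46 tested named genes in 2 conditions, without the genes named for their likeness to a subunit) 2 met this, where about 4.6 would by chance, and neither was an integrin subunit. *FERMT1* (kindlin-1) was at 4.10 log2 CPM in the feeder-free library of line E, where lines A, C and D had 3.67 to 3.72. *CRIPTO* was at 2.70 log2 CPM in the MEF library of line D, where lines A, C and E had 0.05 to 0.25.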

How the results depend on the processing

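The fit on condition alone called 0 of the 9 tested subunits higher and 0 lower, with 3 at an unadjusted p under 0.05, and 114 genes higher and 158 lower. The replicate block, with line as a term, called 3 subunits, 869 genes higher and 713 lower. The blocked limma-voom fit gave 3 subunits, 999 and 791, and the block with no fold change threshold 3, 1207 and 1279. The block changed the call of no other subunit. Both libraries of a line were left out of the block after the data were seen: without line A it called 4 subunits, 918 genes higher and 733 lower, without C 2, 561 and 496, without D 2, 376 and 366, and without E 2, 662 and 497. Without the block, a minimum of 10 counts in every library gave 1 subunit (*ITGB3*) and 199 genes higher, the likelihood ratio test 1, 448 and 389 lower, and DESeq2 1, 695 and 516 lower. No filter gave 73 and 97 genes, no scaling 91 lower, and a fold change of at least 2 gave 70 and 48. With a library left out, 0 to 1 subunit, 0 to 259 genes higher and 0 to 231 lower were called. RLE and upper quartile scaling, limma-voom without the block, no fold change threshold without the block, and thinning of the deepest library called 0 subunits, with 2 or 3 at an unadjusted p under 0.05. The cause of these differences was not tested.

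Of the 9 log2 fold changes, 3 changed sign when samples were left out. *ITGB8* ranged from -0.14 (without line C on MEF) to 0.35 (without line E on MEF), with -0.00195 without line D in feeder-free culture and -0.0388 with the block and without line C. *ITGA6* ranged from -0.000862 (without line E on MEF) to 0.28, and *ITGA3* from -0.23 (without line D in feeder-free culture) to 0.69, with -0.02 without line A on MEF. Between lines, 3 subunits and 1865 genes were called, with no filter 7 and 3379, and with a library left out 2 to 5 and 900 to 2944. *ITGA3* and *ITGB5* were called between lines under each of the 14 alternatives. *ITGB6* and *VTN* were too low to test. The alternative on transcript length was not run, since no exon lengths were used here.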
